A study of Rattus norvegicus with 6 samples.

Results

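The stem-loop class comprised 490 probe sets, beside 787 others, measured on Affymetrix GeneChip miRNA 4.0 arrays in rat dorsal root ganglia (DRG), the clusters that hold the cell bodies of sensory neurons. The class was inferred from order and counts: with the numeric probe-set IDs sorted upward and the last 59 rows set aside as a separate run of likely controls, rows 729 to 1218 were taken, which is the number of rat stem-loop precursors in the array design, following 728 rows taken as mature microRNAs. A step of 5559 in the ID numbers separates row 728 from row 729. There are 2 wider steps, both of which lie among the rows taken as mature. The step of 451 after row 1218 is narrower than 2 steps of 723 and 593 inside the class, so the steps alone do not fix the class. None of the 490 IDs matched the RefSeq tables used here (0 of 490), so no precursor is named, no sequence is shown, and probe sets are called by their rank or by their position from 1 to 490 in the ID order.

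The study compared 3 diabetic with 3 control male Sprague-Dawley rats, using 1 array per animal. Diabetic rats had received 1 intraperitoneal dose of 65 mg/kg streptozotocin (STZ), which destroys pancreatic beta cells and so abolishes most insulin production, and animals under 16.7 mM blood glucose 1 week later had been left out. Control rats had received the citrate vehicle. Ganglia were taken 8 weeks after the injection, and each sample holds the left and right lumbar L3 to L6 ganglia of a single rat, so each array holds neurons, satellite glia and other cells of the ganglion together. The age of the rats is not given in the sources used here. No marker of the tissue could be checked, because no probe set has a name. Signals are the log2 RMA values deposited by the authors, and every difference below is diabetic minus control on that log2 scale.

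A microRNA gene is transcribed as a long primary transcript, from which the nuclear enzyme Drosha cuts a short hairpin, the stem-loop precursor. The hairpin is exported to the cytoplasm, where Dicer removes the loop, and 1 strand of the remaining duplex is loaded into an Argonaute protein as the mature microRNA that represses its target mRNAs. Hairpins are usually short-lived intermediates. The stem of a precursor contains the mature sequence, and the primary transcript contains the whole hairpin, so a probe against the hairpin may also bind these other forms. Which form gave each signal was not tested.

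Most precursor probe sets gave very low signals in every rat. The median of their means over the 6 arrays was 0.55, against 2.41 for the 728 rows taken as mature and 12.1 for the 59 rows of the last run. A mean below 1 was found for 358 of the 490 (73.1%), against 284 of the 728 (39.0%), and 440 (89.8%) lay below 2. Only 11 of the 490 (2.24%) reached a mean of 5, the level called bright here, whereas 262 of the 728 (36.0%) did. No detection call or background value accompanies the signals, so it is not known which of the dim ones lie above background.

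The gap between the classes was present on each array. Precursor medians were 0.57, 0.59 and 0.59 in diabetic rats and 0.58, 0.56 and 0.58 in control rats. The rows taken as mature had medians of 2.61, 2.48 and 1.84 in diabetic rats and 2.54, 2.51 and 2.27 in control rats. Precursor signals at or above 5 numbered 11, 11 and 10 on the diabetic arrays and 10, 11 and 12 on the control arrays, so the number of bright precursors was nearly the same in every animal. The rows taken as mature had between 259 and 272 such signals per array. These class comparisons are descriptions, since probe sets on the same arrays are not replicates.

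Rows at the edges of the class differed in signal from their neighbours outside it, but neighbours inside the class also differed. Positions 33, 34 and 35 had means of 0.38, 8.30 and 0.16, so such a difference does not mark an edge. The last row taken as mature read 0.65, 0.65 and 0.63 in diabetic rats and 0.67, 0.45 and 0.99 in control rats, and the first precursor row read 2.70, 2.68 and 1.995 in diabetic rats and 2.97, 2.27 and 2.89 in control rats. The last precursor row read 0.37, 0.54 and 0.31 in diabetic rats and 0.29, 0.31 and 0.85 in control rats. The first row after it, in the last run, read between 9.37 and 9.71 on all arrays. At the lower edge of the bright level, the dimmest bright precursor had a mean of 5.02 and the next one below it 4.72.

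Brightness was unevenly placed along the ID order. Divided into 5 consecutive blocks of 98 precursors, the class held 11, 14, 15, 7 and 3 members with a mean of at least 2, and 1, 4, 5, 0 and 1 bright ones. The 4 bright ones of the second block include 3 IDs with identical values, at positions 119, 121 and 124. The last block also had the lowest median, 0.43, where the other 4 lay between 0.57 and 0.60. Of the 26 precursors with a mean of at least 3, 8 stood next to another such precursor.

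Several IDs carried the same measurement. Among the members, 9 IDs in 4 sets had identical values on all 6 arrays, which leaves 485 distinct profiles and 9 distinct bright ones. Of these 4 sets, 3 were dim pairs, with means of 0.45, 0.55 and 1.41. The other set consisted of 3 IDs at positions 119, 121 and 124 with a mean of 12.2, and it was the second-brightest precursor signal of the class. Exact ties on single arrays were more widespread: 150 of the 485 profiles shared a value with another precursor on at least 1 array, and the brightest of these had a mean of 2.34, so ties occurred among dim signals alone.

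No precursor probe set was called different between diabetic and control ganglia. Limma's test, fitted on the whole table with Benjamini-Hochberg adjustment over all its rows, called 0 of the 490 at an adjusted p of 0.05 (percentage called over all probe sets 0), and the smallest adjusted p among the precursors was 0.395. In whole ganglia, a change in RNA per cell and a change in the number of cells of a type cannot be told apart. At an unadjusted p below 0.05 there were 31 precursors (6.33%), against 8.3% of all probe sets. Of the 31, 20 were higher in diabetic rats (4.08%, against 4.78% of all probe sets) and 11 were lower (2.24%, against 3.52%). These shares are near or below those of the whole table.

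The number of precursors at an unadjusted p below 0.05 varied with centring, with array weights and with the arrays left out. Centring the arrays on their brighter rows (those at or above the table's median level) moved every difference by -0.077, and the median over the 490 became -0.063, with 0.014 as deposited. None of the 31 changed direction (0 of 31). Their smallest absolute difference was 0.31, so a shift of -0.077 could not reverse any of them. The set at an unadjusted p below 0.05 became 20 precursors (4.08%, against 7.36% of all probe sets). Of these, 4 were higher (0.816%, against 1.88%) and 16 lower (3.27%, against 5.48%). Leaving out diabetic rat 1 gave 20 precursors (4.08%, against 5.87% of all probe sets), and leaving out diabetic rat 2 gave 20 (4.08%, against 6.34%), of which 10 and 16 were among the 31. Without control rat 2 there were 34 (6.94%, against 11.8% of all probe sets), with 20 of the 31 among them. Repeated quantile normalization gave 31 (6.33%, against 8.38% of all probe sets), 22 higher (4.49%, against 4.31%) and 9 lower (1.84%, against 4.07%). Array weights gave 42, 25 higher and 17 lower, and the share over all probe sets was not taken. For centring, for repeated quantile normalization and for array weights, the overlap with the 31 as deposited was not counted.

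Differences in precursor signal were small. The median difference over the 490 was 0.014, with 252 positive and 238 negative, against -0.0011 over all probe sets and -0.019 over the rows taken as mature. The median absolute difference was 0.15 in precursors, 0.16 over all probe sets and 0.19 in the rows taken as mature. No precursor differed by 2-fold or more, at any p, whereas 19 of the 728 rows taken as mature did. The classes differ in level, however. Among rows taken as mature with means below 1, differences ran from -0.76 to 0.90, so none of these reached 2-fold either. The 95% confidence interval of 458 precursors (93.5%) stayed inside a 2-fold change and that of 237 (48.4%) inside a 1.5-fold change, against 84.0% and 42.4% of all probe sets. For signals near background, such an interval limits the change of the signal and not that of the precursor.

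Spread between rats was also set side by side at matched level. In the range from 1 to 2, the median SD within a group was 0.24 over 82 precursors and 0.44 over 58 rows taken as mature. Between 2 and 3 it was 0.27 over 24 precursors and 0.52 over 46 rows taken as mature, and between 3 and 5 it was 0.18 over 15 and 0.42 over 78. Below 1 the 2 classes were close, at 0.21 over 358 precursors and 0.23 over 284 rows taken as mature. At a mean of at least 5 they were 0.17 over 11 and 0.21 over 262. From 1 to 5, precursors varied less from rat to rat than rows taken as mature of the same level, which is a description of these arrays and was not tested.

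The 9 distinct bright precursors lie far above the class median of 0.55. The cut at 5 is a chosen level, with the ninth at a mean of 5.02 and the next precursor at 4.72. The brightest read 13.25, 13.17 and 13.21 in diabetic rats and 13.15, 13.13 and 13.05 in control rats. Its lowest diabetic value lay just above its highest control value, and the difference was 0.10 (SE 0.12, adjusted p = 0.819 in limma). It therefore gave nearly the same signal in all 6 animals.

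The second-brightest, listed under the 3 identical IDs, was the bright precursor with the largest difference. It read 12.5, 12.4 and 12.5 in diabetic rats and 11.9, 12.2 and 11.8 in control rats. All 3 diabetic animals lay above all 3 control animals, and the diabetic values were closely grouped while control rat 2 stood nearer to them than the other controls. Its mean was 12.48 ± 0.054 in diabetic and 11.97 ± 0.23 in control rats (SD, n = 3 each). The difference of 0.51 (SE 0.15, 95% confidence interval 0.14 to 0.88), or 1.42-fold, had an unadjusted p of 0.0135 and did not pass adjustment (adjusted p = 0.583 in limma). These 3 IDs are the only bright ones among the 31 and count there as 3, so that 29 distinct profiles, 18 higher and 11 lower, were at an unadjusted p below 0.05. Over the alternatives run, its adjusted p in limma ranged from 0.185, when the test was limited to bright probe sets, to 0.749 without control rat 3, where the difference was 0.42. It was 0.214 without control rat 2, with a difference of 0.64.

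The next bright precursors showed no separation of the groups. The third read 8.98, 9.05 and 8.91 in diabetic rats and 9.23, 8.91 and 9.28 in control rats, a difference of -0.16 (SE 0.15). The fourth read 8.50, 8.30 and 8.61 in diabetic rats and 8.53, 7.35 and 8.50 in control rats. Control rat 2 was far below the other 5 animals on this probe set, which share a narrow range. Its difference was 0.34 (SE 0.33).

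Of the remaining 5, the fifth read 6.82, 6.75 and 6.70 in diabetic rats and 6.74, 6.41 and 6.82 in control rats. The sixth read 6.34, 6.30 and 6.27 in diabetic rats and 6.23, 5.98 and 6.25 in control rats, a difference of 0.15 (SE 0.13). Control rat 2 was again lowest in both, and in the sixth the groups did not overlap. The seventh read 6.36, 5.86 and 6.10 in diabetic rats and 5.91, 5.66 and 6.55 in control rats, so it varied more within groups than between them. The eighth read 5.30, 5.01 and 5.05 in diabetic rats and 5.28, 5.42 and 5.09 in control rats. The ninth read 5.09, 5.08 and 4.95 in diabetic rats and 4.71, 5.11 and 5.21 in control rats. Both overlapped between groups, with differences of -0.15 (SE 0.15) and 0.027 (SE 0.17).

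Among the 9, then, 7 had a higher and 2 a lower mean in diabetic rats, and 3 did not overlap between groups, all 3 higher in diabetic rats, where 6.97% of all probe sets were higher without overlap. Control rat 2 gave the lowest of the 6 values in 4 of the 9, and its median deviation from the probe set's mean was -0.15. Diabetic rats deviated by 0.11, 0.013 and 0.029 and the other controls by 0.0030 and 0.11. Without control rat 2, the differences of the 7 with a higher diabetic mean were 0.11 for the brightest, 0.64 for the second, -0.046 for the fourth, -0.018 for the fifth, 0.065 for the sixth, -0.12 for the seventh and 0.077 for the ninth. With all arrays they were 0.10, 0.51, 0.34, 0.11, 0.15, 0.067 and 0.027. Leaving out the lowest control value of a probe set lowers its difference by construction. Intervals lay within 1.5-fold for 6 of the 9 and within 2-fold for 8.

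The 39 precursors with means between 2 and 5 were balanced between directions, with 18 higher and 21 lower in diabetic rats. Their differences ran from -0.46 to 0.68. A single one was at an unadjusted p below 0.05, probe set 20535280, which had the second-largest higher value among the precursors at such a p. It read 3.65, 3.23 and 3.38 in diabetic rats and 2.83, 2.99 and 2.39 in control rats. Every diabetic animal exceeded every control animal. The difference was 0.68 (SE 0.20, adjusted p = 0.583 in limma), and the next-largest higher value among the 39 was 0.37.

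The largest higher value of all belonged to probe set 20535750, which is dim. It read 1.55, 1.33 and 1.32 in diabetic rats and 0.28, 0.86 and 0.56 in control rats, with means of 1.40 ± 0.13 and 0.56 ± 0.29 (SD, n = 3 each). The difference was 0.84 (SE 0.18), the smallest p of the class at 0.00248 unadjusted and 0.395 adjusted in limma. The groups did not overlap, and the diabetic values were the more closely grouped. Of the 10 distinct precursors with the largest higher values at an unadjusted p below 0.05, 8 had means under 2, and their differences together ran from 0.48 to 0.84.

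Dim precursors that neighbour each other appear in that list, an observation made after the values were seen. Positions 382, 384 and 385 in the ID order had ranks 4, 3 and 10 among the higher ones, with differences of 0.62, 0.64 and 0.48. Position 384 read 1.54, 1.34 and 1.31 in diabetic rats and 0.82, 1.08 and 0.37 in control rats, and position 385 read 1.21, 1.34 and 1.38 in diabetic rats and 0.89, 1.13 and 0.45 in control rats. Their values on the array of diabetic rat 2 were exactly equal, and both were lowest in control rat 3. That value, 1.34, was also read on the same array at positions 3, 8 and 10, so it was not particular to these neighbours. Position 383, between 382 and 384, differed by 0.061. Position 120, which lies between 2 of the 3 identical bright IDs, had rank 5 with a difference of 0.61 at a mean of 0.75.

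Among lower values, probe set 20535288 had the largest. It read 1.34, 1.58 and 1.90 in diabetic rats and 2.46, 1.91 and 2.75 in control rats. The highest diabetic value and the lowest control value nearly met, and the difference was -0.76 (SE 0.25, adjusted p = 0.583 in limma). Probe set 20536056 followed at a very low level, with 0.22, -0.24 and 0.074 in diabetic rats and 0.60, 0.97 and 0.56 in control rats. Its difference was -0.69 (SE 0.18, adjusted p = 0.583 in limma), again without overlap. The 10 largest lower values at an unadjusted p below 0.05 ran from -0.76 to -0.34. All 11 lower precursors at such a p had means below 2, as did 89.8% of the class.

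With a difference of at least 1.5-fold as well, 8 precursors remained (1.63%, against 3.29% of all probe sets), 6 higher (1.22%, against 1.8%) and 2 lower (0.408%, against 1.49%). None of the 8 was bright, and 3 had means below 1. With centred arrays, 2 higher (0.408%, against 1.1% of all probe sets) and 6 lower (1.22%, against 2.58%) met both limits. None of the original 8 changed direction (0 of 8). The common shift of -0.077 meets a fixed 1.5-fold limit, and it could not reverse a difference of that size. Repeated quantile normalization gave 6 higher (1.22%, against 1.64%) and 1 lower (0.204%, against 1.57%). Without control rat 2 there were 17 (3.47%, against 6.5% of all probe sets), 13 higher (2.65%, against 3.37%) and 4 lower (0.816%, against 3.13%).

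Diabetic and control rats did not overlap in 74 precursors (15.1%, against 13.7% of all probe sets). In 37 the diabetic rats were above (7.55%, against 6.97%) and in 37 below (7.55%, against 6.73%). The shares without overlap lie close to those of the whole table. Of the 37 lower ones 27 had means below 1 and none was bright, whereas 5 of the 37 higher ones were bright, counting the 3 identical IDs separately. In the whole class, 73.1% had means below 1 and 2.24% were bright.

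Direction varied with level without a test between levels. Precursors with means from 1 to 2 were higher in diabetic rats in 53 of 82, with a median difference of 0.075, and those below 1 in 172 of 358, with a median difference of -0.0088. In the range from 1 to 2 the arrays of diabetic rats deviated by 0.092, 0.039 and -0.047 from the probe sets' means, and those of control rats by -0.017, -0.072 and -0.023. Diabetic rat 1 alone had the highest of the 6 values in 25 of the 82. The part of that array in the median difference was not tested.

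Profiles over the 490 precursors were similar in all animals. Pearson's r across probe sets averaged 0.973 between diabetic rats, 0.970 between control rats and 0.969 between groups. Over the 440 precursors with means below 2, where no bright signal raises it, r averaged 0.751, 0.733 and 0.716. Rank correlation was not computed for these 440 alone, so their order from rat to rat was not measured. The coefficients are across probe sets that share arrays and are given as descriptions.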

How the data were processed

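The authors deposited log2 signals, and the submitters' processing notes name RMA and Affymetrix Expression Console. RMA subtracts background, makes array distributions alike and combines the probes of a set, so shifts common to most probe sets would largely vanish before deposit. Software versions and detection calls were not used here. The labels' protocols describe poly(A) tailing and biotin labelling of total RNA. No counts lie behind the values; the number of arrays limits the precision.

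All rows of the table were tested in limma 3.58.1 under R 4.3.3 (lmFit and eBayes, two-sided, all 6 arrays, no block), and members were counted afterwards. Bright means a mean of at least 5. Named were the 10 distinct members with the largest higher and lower difference at an unadjusted p below 0.05 (none passed adjustment) and the 10 brightest, with at most 2 IDs printed per direction. Members, lists and rules were chosen with earlier results of these data known. The fit was also run on simulated data with planted changes, in which values were drawn independently for each row and array. Unlike the deposited values, these held no identical rows, and that run is not used as support here. Alternatives covered the rat number as a block, scaling, filters, moderation, array weights, rows fitted, thresholds and single arrays left out; the class boundary was added after seeing the data.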

Additional observations from a re-analysis of the deposited data

How the results depend on the processing

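No precursor passed the adjusted threshold under any alternative run, the replicate block (0) included, and the smallest adjusted p among them ranged from 0.184 with array weights to 0.740 without diabetic rat 1. The 31 at an unadjusted p below 0.05 became 20 with arrays centred on their brighter rows (4.08%, against 7.36% of all probe sets), which moves every difference by -0.077. They became 13 of 144 precursors at or above the table median and 3 of 11 at means of at least 5. The 3 have identical values, so are 1 of 9 distinct profiles. The share over all rows was not taken. Leaving out 1 array gave 20 (4.08%, against 5.87% without diabetic rat 1 and 6.34% without diabetic rat 2) to 34 (6.94%, against 11.8%). The 8 that also differed by 1.5-fold became 5 without moderation and 12 with array weights, 6 higher and 6 lower. For both settings the cause was not tested and the share over all probe sets was not taken. The 8 became 0 among rows with means of at least 5 and 0 at 2-fold. Leaving out 1 array gave 6 (1.22%, against 2.98% of all probe sets) to 17 (3.47%, against 6.5%). The median difference of 0.014 became -0.063 with centring, 0.061 among rows at or above the table median and 0.105 among those of at least 5; leaving out 1 array gave -0.013 to 0.025. The 11 bright precursors became 19 from a mean of 4, and leaving out 1 array gave 10 to 11. Counting only the 448 members before the widest step in the IDs was chosen after seeing the data. It left 30 at an unadjusted p below 0.05, a limit met by 8.3% of all probe sets. Of the 30, 8 were also at 1.5-fold, which 3.29% of all probe sets were. There were 10 bright ones. Rat numbers were not taken to pair the animals. Over the table, deviations of rats sharing a number had r of -0.025, 0.079 and 0.068, and 4 of 6 arrays correlated best with their own number. Over the precursors r was -0.027, -0.050 and -0.085, and 0 of 6 arrays did. With the replicate block 23 precursors were at an unadjusted p below 0.05, 12 higher and 11 lower. The share over all probe sets was not taken for this fit. The 20 precursors chosen by difference kept their direction in all 291 alternative values, which their choice by size favours. Among the 9 chosen by level alone, 12 of 143 values changed sign: the ninth-brightest became -0.018 with repeated quantile normalization and -0.050 with centring (-0.12 to 0.13 with 1 array left out), the seventh -0.0098 with centring (-0.12 to 0.32), and the tenth 0.019 with array weights (-0.14 to 0.12); the fourth ranged from -0.046 to 0.54 and the fifth from -0.018 to 0.19 with 1 array left out.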
